A study of Mus musculus with 2 samples.

Results

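Molecular chaperones are proteins that help other proteins reach and keep their folded shape. HSP70 proteins bind exposed stretches of unfolded chains and are driven by J proteins (the Dnaja, Dnajb and Dnajc genes), which deliver clients and trigger ATP use. Nucleotide exchange factors, among them the HSP110 proteins and BAG proteins, then reset them. HSP90 acts later on signalling proteins, small heat shock proteins hold clients without ATP, and the chaperonins (TRiC, built from the CCT subunits in the cytosol, and HSP60 with HSP10 in mitochondria) enclose a client in a chamber. In growing neural tissue TRiC is known as the folding machine for tubulin and actin.

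The genes described here are the rows of the deposited count table whose symbol marks a heat shock protein, J protein, chaperonin subunit or BAG protein. The name pattern found 78 of the 15643 genes in the table. They were 13 HSP70 and HSP110 genes, 3 HSP90 genes, 3 small heat shock protein genes, Hspd1 and Hspe1 of the mitochondrial chaperonin, 4 Dnaja, 11 Dnajb and 25 Dnajc genes, 8 CCT genes and 6 Bag genes. The pattern also caught 3 genes outside these families: Hspbp1 and Hspbap1 encode binding partners of heat shock proteins, and Hspb11 encodes a protein of ciliary transport. Another 9 coding genes of the GENCODE M21 annotation carry such a name, Hspa1a among them, and were not analysed here.

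The libraries were RNA-seq libraries of GFP-positive cells sorted from the embryonic brain of CD-1 mice at embryonic day 15, labelled neural stem cells. The control library came from cortex electroporated in utero at embryonic day 13 with a control plasmid, and the knockdown library from cortex given an RBM3 knockdown plasmid. Rbm3 encodes an RNA-binding protein that cooling induces, and the series asks about its part in cortical development under maternal hypothermia. Dams of both groups were made hypothermic at embryonic day 14, so no uncooled library enters any comparison here. The number of embryos behind a library and the promoter that drove GFP are not stated in the labels.

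Each group had 1 library, so no difference below has a replicate check and none was tested. The control library held 17757555 reads over the tabulated genes and the knockdown library 16823612. The 95% intervals come from the split of a gene's reads between both libraries, and cover counting error only. Rbm3 itself had 3242 control and 2397 knockdown reads, which left 84.1% of the control level (79.8% to 88.7%), and the library is called knockdown from its label. Of 11 radial glia markers, the cells that the label names, all had reads in both libraries, and their levels in CPM (reads of a gene scaled to a common library size) summed to 2282 for control and 1387 for knockdown. The 10 neuron markers summed to 6585 and 7956 CPM, so both libraries also held RNA of neurons. The Y-chromosome gene Ddx3y had 664 and 0 reads and Xist 5246 and 24642, so with 1 library a group the sex of the embryos and the knockdown cannot be told apart. None of the 78 members lies on chromosome X or Y.

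The chaperone genes as a whole stood at nearly the same level in both libraries. They took 1.11% of control reads and 1.03% of knockdown reads, and after scaling their levels summed to 10670 and 10740 CPM. Of the 78 members, 70 had a mean of at least 5 CPM and are called measured. Among these, 0 were at least 2-fold higher in the knockdown library, where 2.13% of all 12140 measured genes were. Only Hspa12b was at least 2-fold lower, where 4.51% of all measured genes were. At a limit of 1.5-fold, 0 members were higher against 9.13% of all genes, and 4 were lower (5.71%) against 12.4%. The 4 were Hspa12b, Dnajc15, Dnaja4 and Hspe1. In bulk RNA, fewer cells of a type and less RNA per cell cannot be told apart, for these genes as for all others below. Hspa13 at a log2 ratio of 0.58 and Bag4 at 0.57 lay just inside the limit of 0.585 on the high side, and Dnajc8 at -0.55 just inside on the low side.

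The median log2 ratio of knockdown over control, taken on CPM with 0.5 added, was -0.01 over the measured members and 0.03 over all measured genes. The middle quartiles of all measured genes ran from -0.30 to 0.32. Of the 70 members 52 (74.3%) lay in that range, which holds 50% of all genes by its definition, with 12 below and 6 above it. Abundant genes have less counting error than rare ones, and the part of abundance in this count was not tested. Immediate early genes, which handling of tissue can induce, summed to 472 CPM for control and 1941 CPM for knockdown. All 11 measured genes of that list of 14 were at least 1.5-fold higher, with log2 ratios of 0.62 to 6.16, and Egr2 had 0 reads in the control. Their part in the levels of heat-inducible chaperones was not tested.

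**Figure D1:**
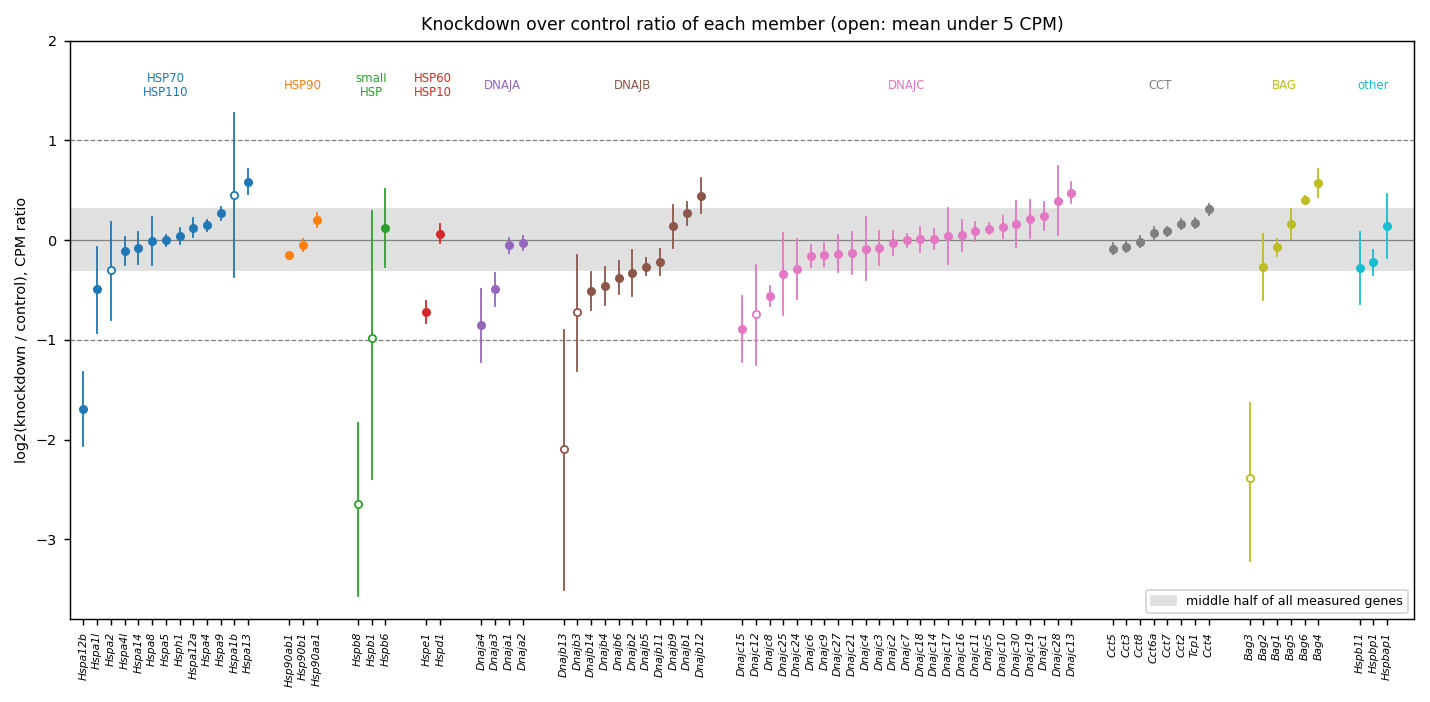
Log2 of the knockdown over control CPM ratio (vertical axis, no pseudocount) for each of the 78 members, grouped by family along the horizontal axis; points are ratios, bars 95% counting intervals, open points have a mean under 5 CPM, and the grey band is the middle quartile range of all measured genes (-0.30 to 0.32). The CCT genes sit close together near 0, and the points below the dashed line at -1 are Hspa12b, Hspb8, Dnajb13 and Bag3.

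**Figure D2:**
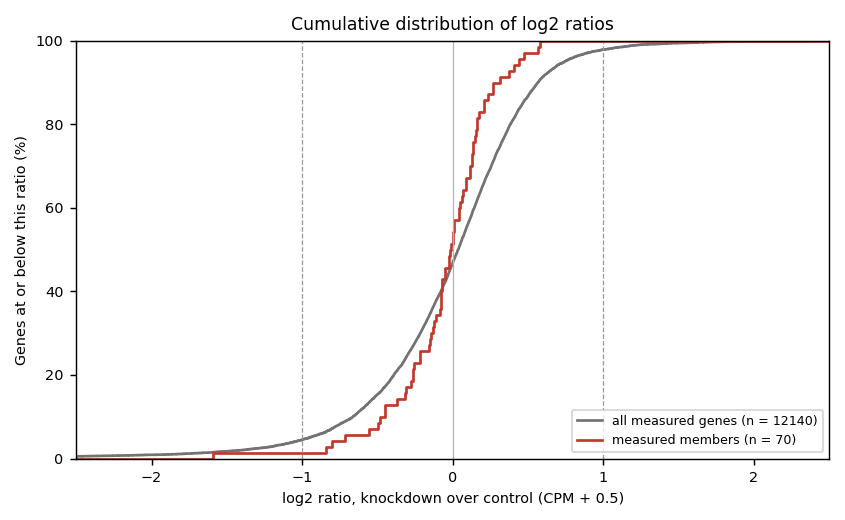
Cumulative share of genes (vertical axis, in percent) at or below each log2 ratio (horizontal axis) for the 70 measured members and all 12140 measured genes. The member curve is steeper, ends at 0.58 on the high side, and has 1 member, Hspa12b at -1.59, beyond the dashed line at -1.

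The HSP70 and HSP110 genes are the core of the system, and 10 of their 11 measured members by name lay within 1.5-fold. Among all 12140 measured genes, 9528 lay within that limit. Hspa5, which encodes BiP, the HSP70 of the endoplasmic reticulum (ER), had 6002 control and 5269 knockdown reads. That was 325.5 and 325.2 CPM, a ratio of 0.999 (0.963 to 1.04), and at 96.1 and 89.1 RPKM (reads scaled to gene length and library size, as deposited) it had the highest tabulated level per length of the HSP70 genes, leaving out Hspa8, whose level is uncertain. Hspa9, the mitochondrial HSP70 mortalin, had 4001 and 4233 reads and was 1.2-fold higher (1.15 to 1.26) in the knockdown library. Among the exchange factors of the HSP110 type, Hspa4 had 5686 and 5546 reads (1.11-fold higher, 1.07 to 1.15), Hsph1 had 2675 and 2414 reads (a ratio of 1.03, 0.972 to 1.09) and Hspa4l had 884 and 720 reads (0.927, 0.839 to 1.02). All 3 thus lay within 1.15-fold of equal levels by their point values.

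Hspa13, an HSP70-like protein of microsomes, had the highest ratio of any measured member. It had 888 control and 1171 knockdown reads, 1.5-fold higher (1.37 to 1.64) without the pseudocount and just inside the limit with it. The row named Hspa14 had 737 and 613 reads and a log2 ratio of -0.08, but GENCODE M21 gives its identifier, ENSMUSG00000051396, to the overlapping gene Gm45902. It is thus not read as Hspa14 here, though it stays in the counts of members, which go by name. Dnajc2, a J protein at the ribosome, had 1209 and 1045 reads and a log2 ratio of -0.02. The stress-inducible Hspa1b was close to undetected in both libraries, with 25 control and 30 knockdown reads (1.37-fold higher, 0.776 to 2.42). Hspa1l and Hspa2, known for their expression in testis, had 120 and 75 reads and 87 and 62 reads.

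Hspa8 encodes HSC70, the constitutive cytosolic HSP70, and is known as an abundant transcript. Here it had 307 control and 268 knockdown reads, 4.15 and 3.83 RPKM. Its level per length was thus far under the 96.1 and 89.1 RPKM of Hspa5, while the ratio of Hspa8 between libraries was 0.993 (0.840 to 1.17). In GENCODE M21, 74.8% of the 50-base stretches of its longest coding transcript also occur letter for letter in transcripts of 13 other genes, among them the predicted genes Gm15459 and Gm26825. Reads from such stretches have no single origin, and the labels do not state how they were counted, so the low level of Hspa8 is not read as low expression. The same measure was 62.3% for Hspa1b, 71.4% for Hspa1l, 58.5% for Hsp90aa1, 51.9% for Dnaja4 and 51.7% for Hspb1. It was over 10% for 20 of the 78 members, with a median of 0.221%, and the levels and ratios of these 20 are uncertain to that degree.

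Of the tabulated members, HSP90 beta had the highest level per length, with Hspa8 counted at its uncertain level. Hsp90ab1, the constitutive cytosolic HSP90 beta, had 51282 control reads (962 RPKM) and 40617 knockdown reads (804 RPKM). It alone held 28.4% and 26.1% of the summed RPKM of all 78 members. Its level was 1.11-fold lower (1.09 to 1.12) in the knockdown library. Hsp90aa1, the stress-inducible alpha form, had 3033 and 3072 reads and was 1.15-fold higher (1.10 to 1.21), so the RPKM of the beta form was 22.2 times that of the alpha form in the control and 17.3 times in the knockdown library. Because 58.5% of 50-base stretches of Hsp90aa1 recur in other genes, against 4.49% for Hsp90ab1, both ratios between the forms are uncertain. Hsp90b1, the ER form GRP94, had 4789 and 4058 reads, a ratio of 0.964 (0.925 to 1.01).

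The 8 CCT subunits of TRiC had similar ratios, within a narrow range. Each of the 8 had between 4158 and 7903 reads in each library, and their log2 ratios ran from -0.08 for Cct5 to 0.31 for Cct4, with an SD over subunits of 0.13. Their median was 0.08, and -0.03 when scaled to library totals. All 8 lay inside the middle quartile range of all genes. Cct5 had 6570 control and 5448 knockdown reads (a ratio of 0.944, 0.910 to 0.978), and Cct4 had 4841 and 5277 (1.24, 1.19 to 1.29). Cct3 and Cct8 had ratios of 0.953 (0.919 to 0.989) and 0.989 (0.952 to 1.03). Cct6a and Cct7 had ratios of 1.05 (1.01 to 1.10) and 1.06 (1.03 to 1.10). Cct2 and Tcp1, which encodes subunit 1, had 1.12 (1.08 to 1.16) and 1.13 (1.09 to 1.17).

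The assembled TRiC ring holds each subunit in equal number, and the transcripts did not stand at equal levels per length. Cct2 was the most abundant, with 199.5 RPKM for control and 207 for knockdown. Cct7 followed at 181 and 179 RPKM, Cct6a at 158 and 154, Cct5 at 132 and 115, and Cct8 at 105 and 95.9. Tcp1 stood at 77.2 and 80.7 RPKM, Cct3 at 76.2 and 67.4, and Cct4 at 64.8 and 74.6. The highest subunit was 3.08 times the lowest in the control and 3.07 times in the knockdown library. The order of subunits was the same in both libraries except that Cct4 was the lowest for control and Cct3 for knockdown. RPKM depends on the gene length the authors used, and 22.2% of 50-base stretches of Tcp1 and 16.8% of those of Cct6a recur in other genes, so the order of levels is less certain than the ratios between libraries.

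**Figure D3:**
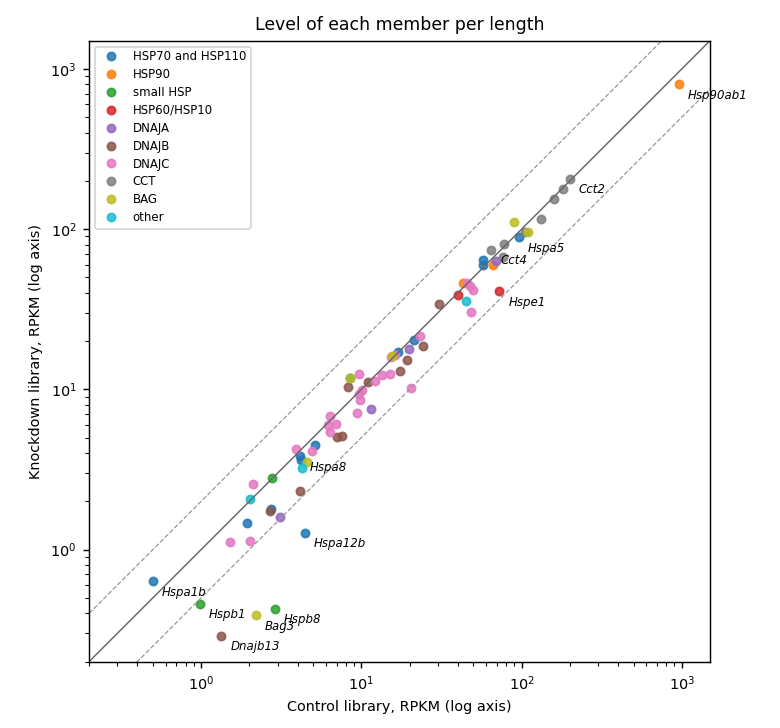
Deposited RPKM of each of the 78 members in the control (horizontal log axis) and knockdown library (vertical log axis), coloured by family; the solid line marks equal RPKM and the dashed lines a 2-fold difference. Hsp90ab1 stands apart at 962 and 804 RPKM, the CCT genes lie between 64.8 and 207, and the points farthest under the line are at 4.43 RPKM or less in the control.

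The genes of the mitochondrial chaperonin differed from each other. Hspd1, which encodes the HSP60 chamber, had 1873 control and 1719 knockdown reads, a ratio of 1.04 (0.978 to 1.12). Hspe1, which encodes its HSP10 lid, had 1907 and 1015 reads and was 1.65-fold lower (1.53 to 1.78) in the knockdown library. In RPKM, Hspd1 was 0.548 times Hspe1 in the control and 0.945 times in the knockdown library. Short transcripts had lower ratios than long ones in these libraries, and with a correction for length the log2 ratio of Hspe1 was -0.52 in place of -0.72, which lies inside the 1.5-fold limit. Of their 50-base stretches, 44.8% for each gene recur in other genes, and the part of this sharing in the difference was not tested.

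These neighbours are read outward from 1 short region on mouse chromosome 1. GENCODE M21 (GRCm38) places Hspd1 at chr1:55077835-55088243 on the minus strand and Hspe1 at chr1:55088132-55091307 on the plus strand. The Hspe1 promoter window in RefSeq (GRCm38.p6, 250 bases before a gene's start to 50 after it) and 1 Hspd1 window share 285 bases. Heat shock factors bind GAA units that alternate in strand, so the windows were searched on both strands for the letters GAANNTTC and TTCNNGAA, each of which is its own reverse complement. The shared stretch holds 3 overlapping matches, while another Hspd1 window, at chr1:55088194-55088493, holds 0. In GENCODE M21 the bases printed below overlap an exon of Hspd1. The matches are shown in capitals because a window of each gene carries them and only Hspe1 was lower (plus strand, chr1:55088053-55088082):
Hspd1 and Hspe1: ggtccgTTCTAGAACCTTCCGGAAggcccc

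Over the family, promoter windows were given for 65 of the 78 members. At least 1 match was found for 17 (26.2%) of these, and for 17.0% of all 27025 genes with a window. The longer form, in which 3 such units alternate, was found for 4 members (6.15%), Dnajb6, Hspd1, Hspe1 and Hsph1, and for 0.662% of all genes. Those 4 had log2 ratios of -0.37, 0.06, -0.72 and 0.04. Genes listed as heat-inducible had a match in 9 of 11 cases with a window. Of the 15 listed, 14 were in the table and 10 were measured. Among those 10 were Hsp90ab1 and Hspa8, described above as constitutive, at log2 ratios of -0.15 and -0.009. The median log2 ratio of the 10 was -0.03, with 1 (Hspe1) at least 1.5-fold lower, 0 higher and 9 between. Of all measured genes 12.4% were lower and 9.13% higher by that limit. The 4 listed genes under 5 CPM were Hspb8, Bag3, Hspb1 and Hspa1b, and among them Hspb8 and Bag3 had the lowest ratios of the family, with log2 ratios of -2.12 and -1.95. Dnajb1, a heat-inducible J protein, had 1233 and 1306 reads and was 1.2-fold higher (1.11 to 1.30). A match is a run of letters and says nothing of binding.

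The small heat shock protein Hspb8 and its partner Bag3 had the lowest ratios of the family, at few reads. Hspb8 had 100 control and 14 knockdown reads, 6.28-fold lower (3.57 to 11.9). Bag3, which joins Hspb8 to HSP70 and sends clients to autophagy, had 101 and 17 reads, 5.22-fold lower (3.10 to 9.31). Both had means under 5 CPM and are outside the counts of measured genes. Without that minimum 4 of 78 members (5.13%) were at least 2-fold lower, Hspb8, Bag3, Hspa12b and Dnajb13, against 8.85% of all tabulated genes, and 0 were higher against 3.23%. At 1.5-fold without a minimum, 9 of 78 (11.5%) were lower against 18.8% of all genes, and 0 were higher against 10.3%. The authors' deposited table has a p-value under 0.05 and a log2 fold change below -1 for the same 4 members (5.13%), and for 6.05% of all genes. With a log2 fold change above 1 it has 0 members and 1.82% of all genes. In the authors' deposited table Hspb8 has an FDR of 0.0464, Bag3 of 0.0847, Hspa12b of 0.316 and Dnajb13 of 0.446. An FDR under 0.05 in the authors' deposited table covers 1 lower member and 1.61% of all genes, and 0 higher members and 0.268% of all genes. The dispersion behind those values cannot have come from replicates of a group, since each group had 1 library.

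The other small heat shock proteins did not share 1 pattern. Hspb1, which encodes HSP25 in mouse, was near the lower limit of detection with 18 control and 8 knockdown reads (a ratio of 0.506, 0.190 to 1.22). Hspb6, which encodes HSP20, had 114 and 109 reads (1.09, 0.829 to 1.43). Cryab, an alpha-crystallin of the same protein family that the name pattern does not take, had 84 and 16 reads, 4.61-fold lower (2.68 to 8.44). Its mean was under 5 CPM. Hspb8, Bag3 and Cryab were thus several-fold lower, Hspb6 was level, and the interval of Hspb1 includes both.

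The starts of Hspb8 and Bag3 carry the same 8 letters, which are shown because these partners had the lowest ratios of the family. The match begins at base 3 of Hspb8 and at base 43 of Bag3, counted from the start of the gene in RefSeq, and Hspb1 has it at 117 bases before its start. GAAGTTTC or its reverse complement GAAACTTC was in 1.21% of all 32851 windows, and was found for 1.35% of all genes with a window. It was found for 5 of the 65 members with a window, Hspb1, Hspb6, Hspb8, Bag3 and Cct2. Hspb6 and Cct2 were not lower, and each also has a window with 0 motif matches. Whether the letters go with a direction was not tested. These letters were chosen after the ratios were known, and they overlap the motif GAANNTTC, which they satisfy. The stretches lie at chr5:116422844-116422873 (minus strand) for Hspb8, chr7:128523614-128523632 (plus strand) for Bag3 and chr5:135887780-135887851 (plus strand) for Hspb1 in GRCm38.p6, with motif matches in capitals:
Hspb8: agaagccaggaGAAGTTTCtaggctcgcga
Bag3: ggatgggaccaGAAGTTTC
Hspb1: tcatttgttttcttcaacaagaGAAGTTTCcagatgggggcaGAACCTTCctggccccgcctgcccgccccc

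Hspa12b, an HSP70-like protein known from endothelial cells, was the one measured member past 2-fold. It had 290 control and 79 knockdown reads, 3.23-fold lower (2.51 to 4.19). Its paralog Hspa12a had 1728 and 1658 reads, a ratio of 1.09 (1.02 to 1.17), so the RPKM of Hspa12a was 3.83 times that of Hspa12b in the control and 13.5 times in the knockdown library. Its levels were 15.7 CPM for control and 4.88 CPM for knockdown, under the stricter minimum of 20 CPM. Dnajb13, a J protein of sperm tails and motile cilia, had 34 and 7 reads, 4.27-fold lower (1.86 to 11.4).

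Like these low-count members, the endothelial, pericyte, meningeal fibroblast, choroid plexus, erythroid and radial glia lists summed lower, while the other cell lists summed higher. Of 10 endothelial markers all 10 were at least 1.5-fold lower, and their levels summed to 391.6 CPM for control and 157.5 CPM for knockdown. Of 7 pericyte markers 4 were lower, with 197 and 109.9 CPM. Of 10 meningeal fibroblast markers 9 were lower, with 848 and 210.4 CPM. For the choroid plexus, 6 of 7 markers were in the table and all 5 measured ones were lower, with 647 and 20.4 CPM. All 6 measured erythroid markers of 8 were lower, with 309 and 67.8 CPM. Microglia and macrophage markers summed higher, at 123 and 141 CPM, with 2 of 6 measured at least 1.5-fold higher and 1 lower. Of 11 markers of radial glia, the cells that the label names, 5 were at least 1.5-fold lower and 0 higher, with 2282 and 1387 CPM. By point value 3 of the 11 had a log2 ratio above 0. Intermediate progenitor markers summed higher, at 606 and 1022 CPM, with 5 of 7 at least 1.5-fold higher and 0 lower. Neuron markers also summed higher, at 6585 and 7956 CPM, with 6 of 10 at least 1.5-fold higher and 2 lower. Of all measured genes 12.4% were lower by that limit and 9.13% higher. None of these markers was at 0 reads in either library. The part of these cells in the ratios of Hspb8, Bag3, Cryab, Hspa12b and Dnajb13 was not tested.

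**Figure D4:**
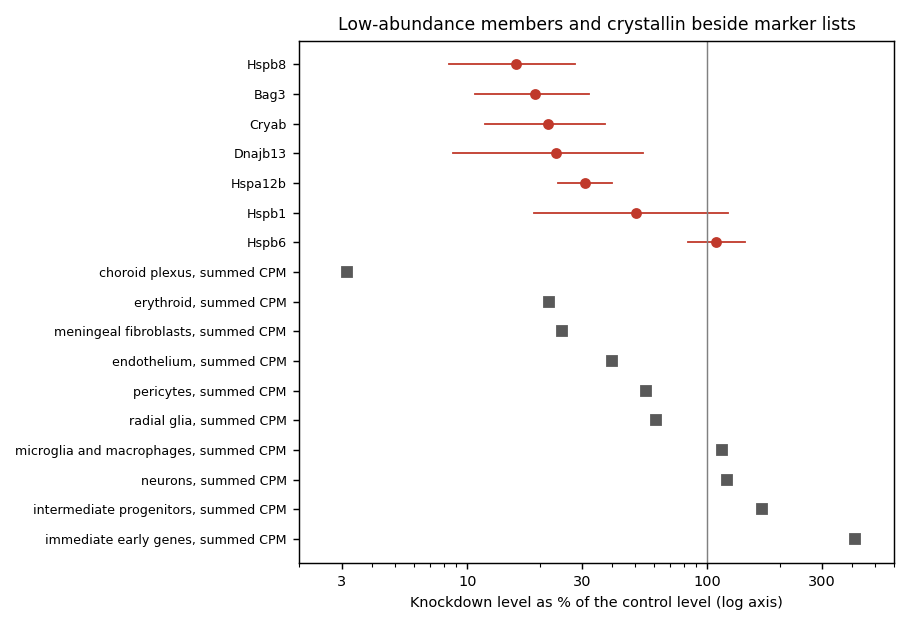
Level in the knockdown library as a percentage of the control (horizontal log axis) for the low-count members and Cryab (red points, bars 95% counting intervals) and for the summed CPM of 10 marker lists (grey squares, no interval). Hspb8, Bag3, Cryab, Dnajb13 and Hspa12b lie left of the line at 100%. The choroid plexus, erythroid, meningeal, endothelial, pericyte and radial glia lists do too. Hspb6 lies near the line, and the microglia, neuron, intermediate progenitor and immediate early gene lists lie right of it.

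Of the remaining Bag genes 3 were higher by point value and 2 lower, all within 1.5-fold, as were 9528 of all 12140 measured genes. Bag6, which guards tail-anchored and misplaced membrane proteins, was the most read of them with 9981 control and 11626 knockdown reads, 1.33-fold higher (1.29 to 1.36). Bag4, known as a silencer of death domains, had 730 and 955 reads, 1.49-fold higher (1.35 to 1.64). Bag5 had 696 and 685 reads, 1.12-fold higher (1.01 to 1.25). Bag1, an exchange factor for HSC70 and the most abundant Bag gene per length at 109 control RPKM against 90.3 for Bag6, had 2591 and 2165 reads, a ratio of 0.951 (0.898 to 1.01). Bag2, an inhibitor of the CHIP ubiquitin ligase, had 184 and 134 reads, a ratio of 0.829 (0.658 to 1.04). In the knockdown library Bag6 stood above Bag1, at 111 against 96.2 RPKM.

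J proteins of the DnaJA and DnaJB classes were mostly lower by point value. All 4 Dnaja genes had a log2 ratio below 0, with a median of -0.27, and 6 of 9 measured Dnajb genes did, with a median of -0.27 as well, where 46.9% of all measured genes lay below 0. The Dnaja median rests on 4 genes that differ: it was -0.05 with a minimum of 20 CPM, which leaves out Dnaja4, and -0.39 with length correction. The abundant cytosolic partners of HSC70 were level: Dnaja2 had 3481 control and 3006 knockdown reads (a ratio of 0.983, 0.936 to 1.03) and Dnaja1 had 3061 and 2599 (0.966, 0.917 to 1.02). Dnaja3, the mitochondrial J protein Tid1, had 796 and 497 reads, 1.41-fold lower (1.26 to 1.58), while its HSP70 partner Hspa9 was 1.2-fold higher. Dnaja4 had 197 and 96 reads, 1.80-fold lower (1.41 to 2.33), but 51.9% of its 50-base stretches lie in Wdr61, which overlaps it on the opposite strand. Whether counting used strand is not stated in the labels, so the reads of Dnaja4 and Wdr61 in the shared stretch cannot be told apart. Overlap with a gene on the opposite strand covered over 10% of the exonic bases of 9 members in all.

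Of the Dnajb genes, Dnajb5 had 2546 and 1860 reads, 1.20-fold lower (1.13 to 1.28). Dnajb2 and Dnajb6, known to hold back protein aggregation, had 391 and 274 reads and 722 and 489 reads, with log2 ratios of -0.32 and -0.37. Dnajb4 had 579 and 371 reads, 1.37-fold lower (1.20 to 1.57). The ER membrane proteins Dnajb12 and Dnajb14 are close relatives and differed: Dnajb12 had 494 and 591 reads, 1.36-fold higher (1.21 to 1.54), and Dnajb14 had 599 and 370, 1.42-fold lower (1.25 to 1.62). With length correction Dnajb14 passed the 1.5-fold limit, at a log2 ratio of -0.69, as Hspe1 left it. Dnajb3, known from testis, had 75 and 40 reads and was under 5 CPM.

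The Dnajc genes, which carry a J domain on otherwise unlike proteins, centred on 0. Of 24 measured, 12 lay above 0 and 12 below, with a median log2 ratio of 0.004. Dnajc5, the cysteine string protein of synaptic vesicles, had 5685 control and 5412 knockdown reads (1.08, 1.04 to 1.12). Dnajc6, the auxilin that strips clathrin from vesicles, had 1585 and 1250 reads (0.897, 0.833 to 0.967). Dnajc13, an endosomal J protein, had 1322 and 1615 reads, 1.39-fold higher (1.29 to 1.496), the highest of the class.

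Of the Dnajc class, Dnajc8, Dnajc9, Dnajc7 and Dnajc21 had ratios from lower to level. Dnajc8, which associates with the spliceosome, had 2206 control and 1317 knockdown reads, 1.47-fold lower (1.37 to 1.58). Dnajc9, a chaperone of histones, had 1440 and 1144 reads (0.904, 0.836 to 0.978). Dnajc7, which joins HSP70 and HSP90, had 4150 and 3645 reads and a ratio of 0.9995 (0.956 to 1.04), the closest to 1 of the class. Dnajc21, which acts in ribosome assembly, had 416 and 334 reads and a log2 ratio of -0.13.

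Among mitochondrial members the import and inner membrane proteins differed from each other. Dnajc15, an inner membrane J protein, had 236 control and 112 knockdown reads, 1.85-fold lower (1.47 to 2.34). Dnajc19, of the import motor, had 454 and 461 reads (1.16, 1.01 to 1.32). Dnajc11 had 1915 and 1789 reads (1.06, 0.996 to 1.13), and Dnajc30 had 318 and 312 reads (1.12, 0.952 to 1.31). Over all 9 mitochondrial members the median log2 ratio was 0.09, with Hspe1 and Dnajc15 at least 1.5-fold lower and the other 7 between. By that limit 12.4% of all measured genes were lower and 9.13% higher. The length-corrected log2 ratio of Dnajc15 was -0.59, at the edge of the 1.5-fold limit.

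Members on a list for the ER, which does not hold Dnajb12 and Dnajb14 given above, had no common direction. Of 8, 4 lay above 0 and 4 below, with a median log2 ratio of 0.06. All 8 were within 1.5-fold, as were 9528 of all 12140 measured genes. Dnajb9, which feeds clients to degradation and is induced when ER folding fails, had 363 control and 351 knockdown reads (1.10, 0.948 to 1.28). Dnajb11, a cofactor of BiP, had 1106 and 833 reads (0.857, 0.782 to 0.939). Dnajc3, the PERK inhibitor p58IPK, had 640 and 532 reads (0.946, 0.842 to 1.06), and Dnajc10, a reductase of disulfides, had 1435 and 1380 (1.09, 1.02 to 1.18).

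The remaining measured Dnajc genes were near equal levels or had few reads: Dnajc14, Dnajc16, Dnajc17 and Dnajc18 had log2 ratios of 0.01 to 0.05, Dnajc4 had -0.08, Dnajc27 -0.13, Dnajc1 0.24 and Dnajc24, of diphthamide synthesis, -0.28. Dnajc28 had 134 and 155 reads and a log2 ratio of 0.37, and Dnajc25 had 122 and 85 and a log2 ratio of -0.31. Dnajc12, a cochaperone of aromatic amino acid hydroxylases, had 99 and 52 reads, 1.67-fold lower (1.18 to 2.39), with a mean under 5 CPM. The genes that the pattern caught outside the named families had log2 ratios of -0.22 for Hspbp1, -0.26 for Hspb11 and 0.13 for Hspbap1.

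Genes that work beside the family were read from lists of chaperone partners. All 35 measured HSP90 and HSP70 cochaperones of 37 were within 1.5-fold, as were 9528 of all 12140 measured genes. The median log2 ratio of these cochaperones was 0.05. Fkbp4, the most abundant of them by mean RPKM over both libraries (Nudc was above it for control, at 127 against 111 RPKM), had 5528 and 5648 reads (1.16, 1.12 to 1.21). Of the heat shock factor list, 3 of 7 genes were in the table. Hsf1, the master regulator of the heat shock response, had 898 and 789 reads, a ratio of 0.9998 (0.907 to 1.10). Hsf2 had 1218 and 1556 reads, 1.45-fold higher (1.35 to 1.57), and Hsbp1, which binds heat shock factor, had 3669 and 2372 reads, 1.36-fold lower (1.29 to 1.43). With length correction the log2 ratio of Hsf2 was 0.597 in place of 0.536, which is past the 1.5-fold limit. That of Hsbp1 was -0.20 in place of -0.44.

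Prefoldin and the tubulin cofactors, which hand clients to TRiC or take them on from it, stood lower than TRiC itself. Of 18 measured genes of 21 listed, 5 were at least 1.5-fold lower, 0 were higher and 13 lay between, with a median log2 ratio of -0.26, and of -0.22 after length correction, against 0.08 and 0.12 for the 8 CCT genes. Of all measured genes 12.4% were lower by that limit and 9.13% higher. After length correction only Pfdn5 of the 18 was past the limit, at a log2 ratio of -0.82, and Pfdn1, Pdrg1, Tbca and Uxt lay inside it at -0.58, -0.57, -0.46 and -0.45. Pfdn5, a prefoldin subunit, had 2181 and 935 reads and was 2.05-fold lower (1.90 to 2.22). Pfdn1 was 1.79-fold lower (1.58 to 2.03), Tbca, the tubulin cofactor most abundant per length, was 1.63-fold lower (1.51 to 1.77), Uxt was 1.58-fold lower (1.23 to 2.05) and Pdrg1 was 1.57-fold lower (1.42 to 1.73). Pdcl, a phosducin-like CCT cofactor, lay at the other end with 1237 and 1515 reads, 1.39-fold higher (1.29 to 1.504). Both lists were chosen with earlier results of these data known, and the difference between them was not tested.

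ER folding genes outside the family held 3 lower, 1 higher and 18 between among 22 measured of 23 listed, with a median log2 ratio of -0.21, and -0.12 after length correction. The shares of all measured genes were 12.4% lower and 9.13% higher. After length correction 3 were lower and 0 higher: Sec61b lay inside the limit at -0.46 and Uggt1 at 0.42, while Txndc5 passed it at -0.66. Serpinh1, the collagen chaperone HSP47, had 2217 and 757 reads and was 2.57-fold lower (2.37 to 2.80). It is known from collagen-producing cells, and 9 of the 10 meningeal fibroblast markers were also lower, whose part in its ratio was not tested. Pdia5 was 1.86-fold lower (1.38 to 2.52) and Sec61b 1.63-fold lower (1.40 to 1.91). Uggt1, which checks the folding of glycoproteins, was 1.53-fold higher (1.43 to 1.63). Ppib, the most abundant of the list per length, had 3098 and 2035 reads, 1.34-fold lower (1.26 to 1.41). All 15 measured mitochondrial chaperones and proteases outside the family were within 1.5-fold, with a median of 0.17. Lonp1, the most abundant of these by mean RPKM over both libraries (Clpp was above it for control, at 47.6 against 44.1 RPKM), had 2323 and 2139 reads, a ratio of 1.05 (0.988 to 1.11).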

How the data were processed

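The deposited table holds raw read counts per gene for each library, per the file headers. Its RPKM values, log2 fold change, log2 average CPM, p-value and FDR are the authors' own, per the file headers. The submitters' processing notes name TopHat2 2.0.12, Bowtie 1.0.1 and HTSeq 0.6.0; the sources used here do not give the build, annotation, strand setting or test. Counts were scaled with TMM factors (edgeR 4.0.16; 1.04 for the control, 0.963 for the knockdown library). Log2 ratios used a pseudocount of 0.5 CPM, which understates differences of low genes. Genes were called measured from a mean of 5 CPM up, and calls are rules of size (2-fold, 1.5-fold), not tests. The 95% intervals are exact Clopper-Pearson intervals without the pseudocount, and PCR copies can make them too narrow. The calculation was tested on simulated data. Members sharing sequence were found by exact 50-base matches to GENCODE M21 transcripts (GRCm38), on both strands. Promoters are from RefSeq (GRCm38.p6).

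The members and gene lists were chosen with earlier results of these data known. The rule for named genes allowed every member with its reads, intervals for members past 1.5-fold, the 8 highest and 8 lowest ratios, the 3 most abundant of each role and all CCT, HSP90 and BAG genes, and from each list the genes past 1.5-fold (at most 4) and the most abundant. Intervals of further members, and Hsf1, Hsf2, Uxt, Pdcl, Txndc5, Nudc and Clpp, were added with the values known. Alternatives were other scalings (library totals, upper quartiles and the median-of-ratios factors of DESeq2 1.42.0), pseudocounts, CPM minimums, a length correction (lowess, span 0.3, statsmodels 0.14.6) and the authors' log2 fold change.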

Additional observations from a re-analysis of the deposited data

How the results depend on the processing

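No paired analysis was possible because each group had 1 library, and for the same reason no library could be left out. The count of members at least 2-fold lower, 1 as reported, was 4 with no CPM minimum and 4 with a minimum of 1 CPM, which admit members with few reads, and 0 with a minimum of 20 CPM, which leaves 54 members. The count at least 1.5-fold lower, 4 as reported, was 9 with no minimum, 9 with a minimum of 1 CPM, 1 with a minimum of 20 CPM and 7 with library totals. With length correction it was again 4, with Dnajb14 in place of Hspe1. The count at least 1.5-fold higher, 0 as reported, was 1 with median-of-ratios factors and 1 with the authors' log2 fold change. Leaving out members that share over 10% of their 50-base stretches, a choice made after seeing the data, left 2 at least 1.5-fold lower among 53. The count at least 2-fold higher was 0 under all settings tried. The median log2 ratio of members ranged from -0.12 with library totals to 0.004 with a minimum of 20 CPM, so it had no stable sign, and library totals shifted the median of all measured genes from 0.03 to -0.07. The CCT median ranged from -0.03 to 0.12, and was below 0 with library totals. The log2 ratio of Hspa12b ranged from -1.70 to -1.51, of Hspb8 from -2.64 to -1.78 and of Bag3 from -2.38 to -1.66. Members with under about 100 reads carry wide intervals, as for Hspb1, Hspa1b and Dnajb13.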
